A study of Homo sapiens with 6 samples.

Results

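The lysyl oxidases and the collagen lysyl hydroxylases are enzymes that prepare and carry out the cross-linking of collagen and elastin. The 8 genes described here are LOX, LOXL1, LOXL2, LOXL3 and LOXL4, which encode lysyl oxidases, and PLOD1, PLOD2 and PLOD3, which encode lysyl hydroxylases. They were taken from a list of names, with the normalized counts of all RefSeq transcripts of a gene added together, and they are 8 of 26989 named genes in the deposited table. All 8 passed the filter on low values, a mean of at least 10 normalized counts, as did 15182 genes in all. RNA-seq was done on UWB1.289, a cell line from a human ovarian carcinoma without functional BRCA1. The 3 shHBO1 libraries came from cells transduced with a lentiviral short hairpin RNA against HBO1, the histone acetyltransferase encoded by KAT7, and the 3 shCTRL libraries from cells transduced with a control hairpin. Both groups were treated with polybrene at 10 µg/mL and, after 96 h, with puromycin in rising doses between 1 and 3 µg/mL. How many hairpins were used is not stated, and nothing in the labels says that replicates were separate cultures, so p-values measure only the spread between libraries, which may be technical.

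Lysyl hydroxylases act inside the cell. They add a hydroxyl group to lysines of newly made collagen chains, with iron, 2-oxoglutarate and ascorbate as cofactors, and the hydroxylated lysines can carry sugars and give more stable cross-links. Lysyl oxidases are copper-dependent enzymes that act mostly outside the cell, where they oxidise lysines and hydroxylysines of collagen and elastin to aldehydes that then form the cross-links. In tumours both families are known for stiffening the matrix, and LOX and PLOD2 are known targets of the hypoxia-inducible factors.

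KAT7 was lower in every shHBO1 library, at 1008, 872 and 784 normalized counts, against 3616, 3952 and 3554 in shCTRL (log2 fold change −2.07, SE 0.11, limma adjusted p = 0.00123, and 0.397 at −2.01 without the pair numbered 2). Recovered reads ran from 35940400 to 39908703 per library. KAT7 was the only gene past an adjusted p of 0.05 in limma's test without a block (0.00659% of genes tested), and 19 genes passed with a block for replicate number (0.125%). Neither set held any of the 8 enzymes. Libraries numbered 3 stood apart in both groups: their deviations from the group means correlated across genes at 0.48 with each other. With those of numbers 1 and 2 the correlations were between −0.39 and −0.18. Deviations from a group mean cancel out within the group, so these negative values follow in part from the 0.48. Of tested genes 9.69% differed between replicate numbers. Of 13 markers of ovarian carcinoma epithelium all 13 were tested, and their summed level was 340769 to 404782 normalized counts in shHBO1 and 360974 to 435925 in shCTRL. Keratins made up most of that sum, 11 of the 13 estimates were below 0, and the median log2 fold change was −0.15. Fibroblasts are a rich source of these enzymes in tissue. Among 9 fibroblast markers DCN and PDGFRA were listed at 0 in all 6 libraries, and LUM, FAP and PDGFRB averaged under 5 in both groups. The summed fibroblast list was 947 to 1102 in shHBO1 and 1122 to 1359 in shCTRL, mostly PDPN and THY1, with PDPN lower in shHBO1 without overlap. Of 6 endothelial markers 4 were tested, with sums of 790.3 to 953 in shHBO1 and 928 to 1319 in shCTRL, mostly CDH5. Of 7 leukocyte markers 4 were tested, with sums of 539 to 685 in shHBO1 and 538 to 657 in shCTRL, mostly CD68, and TYROBP was listed at 0 in all libraries. The part of these markers in the results was not tested. In bulk RNA of this kind, fewer cells of one type and less RNA per cell cannot be told apart.

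Some sequences are shown first because results below turn on which form of a gene was counted. PLOD2 is spliced with or without 1 extra coding exon of 63 bases, which adds 21 codons. The form with the exon, NM_182943, is known as the long form and is the one linked to hydroxylation of the collagen ends (telopeptides), and NM_000935 lacks it. The exon lies at chr3:146077862-146077924 on the minus strand of GRCh38, as exon 14 of 20 in GENCODE release 29. It is shown in capitals between 15 bases of each neighbouring exon:
PLOD2 extra exon: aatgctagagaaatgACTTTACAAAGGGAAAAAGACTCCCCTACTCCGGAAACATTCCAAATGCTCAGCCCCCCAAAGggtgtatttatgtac
LOXL3 has a form, NM_001289165, that skips 2 coding exons of 215 and 220 bases present in NM_032603, which removes 145 codons and keeps the reading frame. The exons lie at chr2:74549369-74549583 and chr2:74536709-74536928 on the minus strand of GRCh38, as exons 4 and 5 of 14. The junction that replaces them is shown with the downstream exon in capitals, followed by both skipped exons:
LOXL3 junction of the short form: tccaatgtcattgagGCCCGTGTCCGTCTA
LOXL3 exon 4: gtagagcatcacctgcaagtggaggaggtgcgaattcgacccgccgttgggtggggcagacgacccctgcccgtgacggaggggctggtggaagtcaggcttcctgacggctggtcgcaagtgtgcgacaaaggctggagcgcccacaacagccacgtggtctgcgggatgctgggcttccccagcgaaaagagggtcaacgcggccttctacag
LOXL3 exon 5: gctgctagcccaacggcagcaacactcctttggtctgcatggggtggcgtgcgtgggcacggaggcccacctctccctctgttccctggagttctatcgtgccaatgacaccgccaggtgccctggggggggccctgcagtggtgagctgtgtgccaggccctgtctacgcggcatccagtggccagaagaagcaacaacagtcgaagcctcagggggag

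The window before the start of LOX is shown as well, because LOX was the only member whose groups did not overlap. The letters ACGTG or GCGTG, the core that hypoxia-inducible factors bind, occurred at 4 positions in the 250 bases before the start, 3 on the strand of the gene and 1 on the other. The window lies at chr5:122078260-122078509 on the minus strand of GRCh38.p14 (RefSeq), and the matches are in capitals:
LOX upstream window: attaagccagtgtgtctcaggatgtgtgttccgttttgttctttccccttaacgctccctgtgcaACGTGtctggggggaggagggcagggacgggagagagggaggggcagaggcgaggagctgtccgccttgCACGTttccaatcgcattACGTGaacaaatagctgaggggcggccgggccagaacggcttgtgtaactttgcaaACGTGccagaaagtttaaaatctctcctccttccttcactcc
Of 35116 windows of this length in the RefSeq table, 43.2% held at least 1 match and 3.22% held at least 4. A window was found for 7 of the 8 members. PLOD2 had 3 matches and PLOD1 had 2. LOXL1, LOXL4 and PLOD3 had 0, and LOXL3 had 0 before its upstream start and 1 before a second start. A further pair of LOX windows, which overlap each other inside the gene, had 2 matches each. A match describes letters and does not show a bound site.

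All 8 enzymes were expressed, at levels that spanned a wide range. Levels were compared per kilobase of the GENCODE transcript matched to each gene's most abundant RefSeq transcript. PLOD3, which is both a lysyl hydroxylase and a glycosyltransferase of collagen, had the highest level, with a mean of 2646 normalized counts per kilobase over the 6 libraries. PLOD1, the hydroxylase of the collagen helix, followed at 1850. LOXL4 had 698 and PLOD2 had 557 counts per kilobase, and their ranges over the 6 libraries overlapped. LOXL1 (429) and LOXL3 (329) came next and also overlapped. For LOXL3 all counts were divided by the 2398 bases matched to NM_001289165, though some were assigned to NM_032603 with 3502. A greater length would lower LOXL3, so this overlap and the shares below depend on that choice. LOX had 120 normalized counts per kilobase and LOXL2 had 14.9, each below the range of the gene before it. The summed level of the 3 lysyl hydroxylases was 5065 ± 301 normalized counts per kilobase in shHBO1 and 5041 ± 188 in shCTRL (SD, n = 3 each). For the 5 lysyl oxidases it was 1593 ± 130 in shHBO1 and 1588 ± 243 in shCTRL. Both sums differed by less than their spread. LOXL4 held 32.7 to 45.5% of the lysyl oxidase sum in shHBO1 and 34.8 to 52.3% in shCTRL, the largest share of the 5 genes in every library. LOX held 7.66%, 7.77% and 9.53% of it in shHBO1, against 6.48%, 6.73% and 7.37% in shCTRL, without overlap. These shares were not tested, and they depend on the other genes in the sum. In each group the share of LOX was highest in replicate 3, where that of LOXL4 was lowest.

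**Figure D1:**
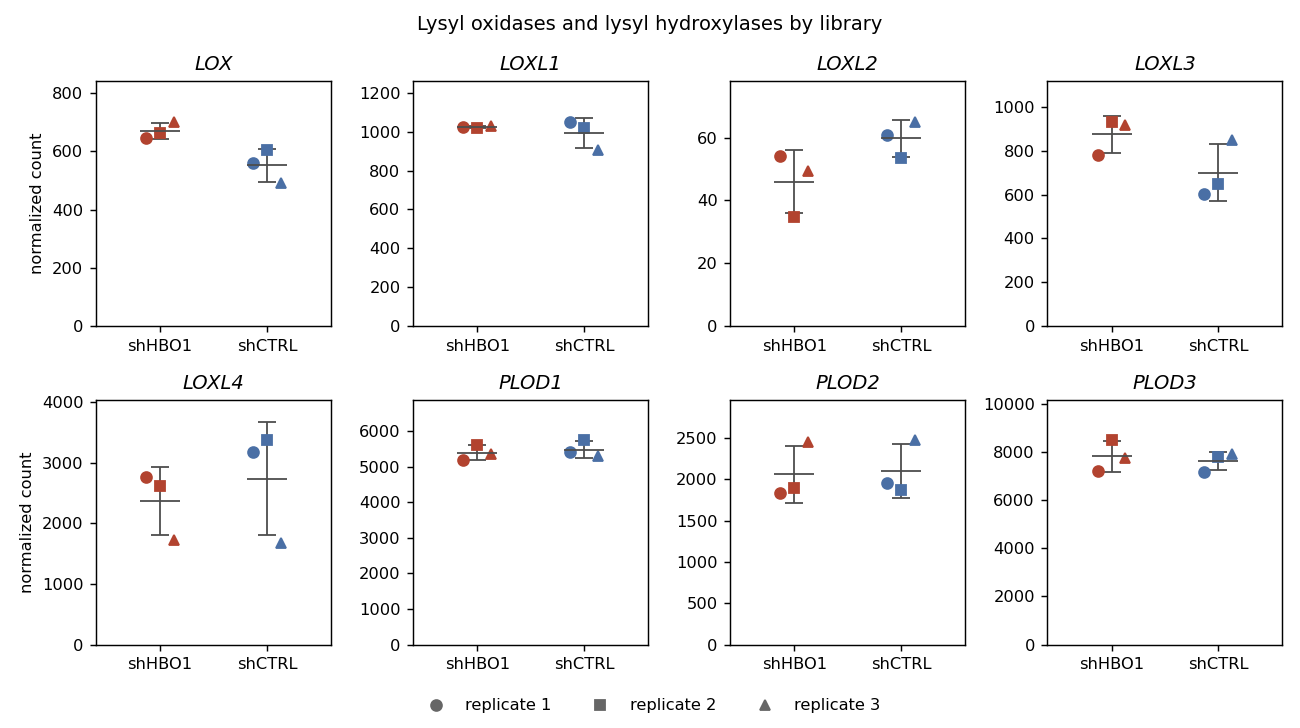
Normalized counts (y axis, from 0) of the 8 enzymes in the 3 shHBO1 (red) and 3 shCTRL (blue) libraries, with marker shapes for the replicate numbers and bars for the mean ± SD. LOX is the only gene whose 3 shHBO1 values, 648 to 702, lie apart from the shCTRL values, 493 to 605, and LOXL4 and PLOD2 separate the libraries numbered 3 from the rest in both groups.

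LOX, the founding lysyl oxidase, had 648, 665 and 702 normalized counts in shHBO1 replicates 1, 2 and 3, against 560, 605 and 493 in shCTRL. The 3 shHBO1 values lay above the 3 shCTRL values, as they did for 4.49% of all tested genes (8.93% were apart in either direction), and LOX was 1 of the 8 members to show this. Its mean was 671 ± 27.6 in shHBO1 and 553 ± 56.4 in shCTRL (SD, n = 3 each), 1.22 times the control mean. On the log2 scale shHBO1 was higher by 0.28 (SE 0.11, with 95% confidence limits of 0.025 and 0.54), and LOX did not pass over all genes (limma adjusted p = 1.00). In limma without the block LOX was the only member at an unadjusted p under 0.05, where 1.73% of tested genes were called higher, 1.81% lower and 3.54% in either direction. With the block 2 of 8 members, LOX and LOXL3, were under that value, as were 11.3% of tested genes, and the adjusted p of LOX in limma was 0.346. LOXL3 was also under it in DESeq2 and when libraries were scaled to their totals. Within the numbered pairs LOX was at 116%, 110% and 142% of its control, so the pair numbered 3 had the largest difference. Without that pair its log2 fold change was 0.17.

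The deposited transcripts of LOX gave unlike values. NM_002317, the main one, had 473, 663 and 557 normalized counts in shHBO1, against 427, 475 and 290 in shCTRL, and the groups overlapped. NM_001178102 had 175, 2.04 and 145 in shHBO1, against 133, 125 and 202 in shCTRL. Its value in shHBO1 replicate 2 corresponded to 2 reads, while the other 5 libraries held 131 to 193 reads. NM_001317073 had 6 reads in shCTRL replicate 2 and 0 in each of the other 5 libraries. The sources do not state how reads were assigned to transcripts with shared exons, so transcript values carry an error that cannot be gauged here. On the most abundant transcript alone the log2 fold change of LOX was 0.52, also without passing (limma adjusted p = 1.00).

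LOXL1, which is tied to elastic fibre formation, varied little among shHBO1 libraries and more among controls. It had 1023, 1017 and 1028 normalized counts in shHBO1, against 1051, 1022 and 908 in shCTRL. The shHBO1 values fell inside the range of the controls. The log2 fold change was 0.044 with a 95% confidence interval from −0.17 to 0.26. LOXL1-AS1, a long non-coding RNA whose gene span overlaps LOXL1, averaged 826 ± 121 in shHBO1 and 780 ± 125 in shCTRL (SD, n = 3 each). Strand use in counting is not given, so reads of LOXL1 and LOXL1-AS1 cannot be told apart where they overlap.

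LOXL2, which has been described both as a matrix enzyme and as a nuclear one, was the least abundant member. It had 54.2, 34.6 and 49.2 normalized counts in shHBO1, against 60.9, 53.4 and 65.0 in shCTRL. Its groups overlapped only through shHBO1 replicate 1 and shCTRL replicate 2. It was lower in shHBO1 in each of the 3 numbered pairs, at 88.9%, 64.9% and 75.7% of control, a pattern shown by 17.1% of all tested genes. The log2 fold change was −0.39 with a wide 95% confidence interval from −0.98 to 0.20 (limma adjusted p = 1.00), and −0.20 without shHBO1 replicate 2. With 34 to 62 reads per library, LOXL2 had the lowest counts of the 8 enzymes. LOXL2-AS1, which overlaps LOXL2, did not pass the filter and was listed at 0 in 5 of the 6 libraries. ENTPD4 and R3HCC1, which lie near LOXL2 without overlapping it, had log2 fold changes of 0.071 and 0.050 and overlapping groups.

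LOXL3, whose loss in humans and mice affects cartilage and palate, had 780, 933 and 917 normalized counts in shHBO1, against 601, 651 and 848 in shCTRL. Only shCTRL replicate 3 reached into the range of the shHBO1 libraries. Means were 877 ± 83.8 in shHBO1 and 700.2 ± 131 in shCTRL (SD, n = 3 each). The difference was 0.34 on the log2 scale (SE 0.15, limits of the 95% interval −0.0096 and 0.68), which did not pass (limma adjusted p = 1.00). It was higher in shHBO1 in each numbered pair, at 130%, 143% and 108% of control, which 15.3% of tested genes also showed. With the block its SE was 0.096 and its adjusted p was 0.265 in limma, and it still did not pass.

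Most LOXL3 counts were assigned to NM_001289165, the short form whose junction is printed above. Reads on that junction or in the skipped exons were not counted apart. The matched transcripts have 2398 bases for NM_001289165 and 3502 for NM_032603, so they differ in more than the 2 skipped exons. Shares were not corrected for length. NM_001289165 held 85.9%, 79.4% and 81.8% of LOXL3 normalized counts in shHBO1, against 82.9%, 75.5% and 88.9% in shCTRL. The full-length NM_032603, with exons 4 and 5, held 10.7 to 18.0% in shHBO1 and 9.97 to 20.3% in shCTRL. Shares overlapped widely between groups, so the composition of LOXL3 gave no visible difference beside its level. The gene span of DOK1, an adaptor of tyrosine kinases, overlaps LOXL3. DOK1 had 1672, 1716 and 1778 normalized counts in shHBO1, against 1496, 1588 and 1600 in shCTRL, and its groups did not overlap. Its log2 fold change was 0.14 (limma adjusted p = 1.00), and the part of shared reads in the LOXL3 values was not tested. SRFBP1, which overlaps LOX, averaged 644 ± 65.0 in shHBO1 and 571 ± 146 in shCTRL (SD, n = 3 each), and its groups overlapped.

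LOXL4, the most abundant lysyl oxidase, differed more between replicate numbers than between hairpins. It had 2757, 2615 and 1722 normalized counts in shHBO1 replicates 1, 2 and 3, against 3171, 3367 and 1666 in shCTRL. Both libraries numbered 3 were low, and the groups overlapped. The log2 fold change between hairpins was −0.17 with a 95% confidence interval from −0.84 to 0.49 (limma adjusted p = 1.00). Single libraries decided this value: it was −0.50 without shCTRL replicate 3, −0.033 without shCTRL replicate 1, 0.011 without shCTRL replicate 2 and 0.041 without shHBO1 replicate 3. With the block the interval narrowed to −0.36 to 0.018, and the gene did not pass (limma adjusted p = 0.485). Between numbers LOXL4 passed, with a difference of −0.80 log2 units for number 3 minus number 1 (limma F test of the numbers, adjusted p = 0.00576), where 9.69% of tested genes also passed. Within the pairs LOXL4 was at 87.0%, 77.7% and 103% of its control.

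**Figure D2:**
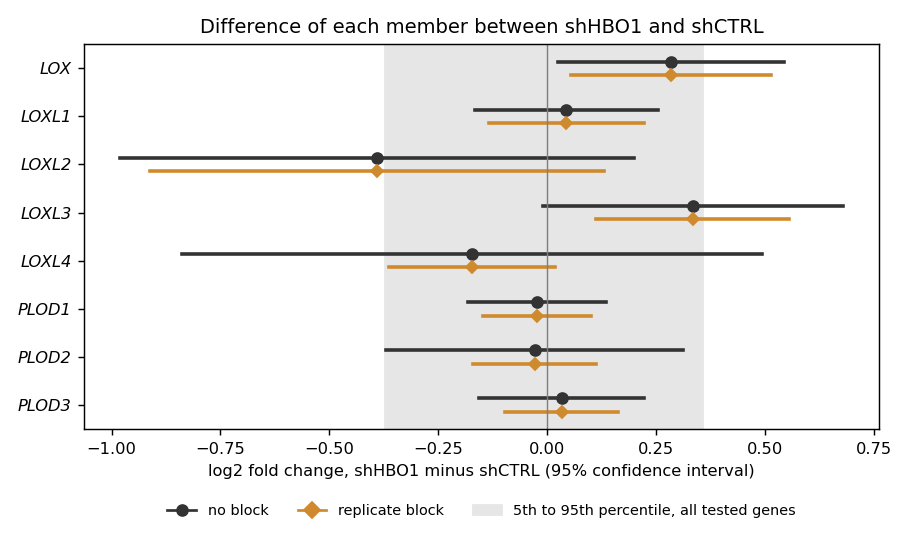
Log2 fold change of each enzyme, shHBO1 minus shCTRL, with 95% confidence intervals from limma without a block (dark circles) and with the replicate number as a block (orange diamonds); the grey band spans the 5th to 95th percentile of all 15182 tested genes, −0.37 to 0.36. LOXL2 at −0.39 lies just outside the band, LOX at 0.28 and LOXL3 at 0.34 near its upper edge, and the 3 PLOD genes sit close to 0.

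PLOD1 had 5194, 5623 and 5366 normalized counts in shHBO1, against 5413, 5742 and 5295 in shCTRL. PLOD3 had 7234, 8488 and 7735 in shHBO1, against 7184, 7802 and 7907 in shCTRL. In both genes the groups overlapped. The 95% interval of the log2 fold change was −0.18 to 0.14 for PLOD1 and −0.16 to 0.22 for PLOD3, so larger differences lay outside it. Genes next to them gave similar estimates, with a log2 fold change of −0.022 for ZNHIT1 beside PLOD3 and 0.028 for MFN2 beside PLOD1.

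PLOD2 had 1835, 1890 and 2457 normalized counts in shHBO1, against 1955, 1872 and 2472 in shCTRL. The libraries numbered 3 were the highest of each group. The log2 fold change between hairpins was −0.029 (95% confidence interval −0.37 to 0.31, limma adjusted p = 1.00). Between replicate numbers PLOD2 passed, with number 3 above number 1 by 0.38 log2 units (limma F test of the numbers, adjusted p = 0.0246). LOXL4 and PLOD2 were thus the 2 of 8 members to differ between numbers, in opposite directions, where 9.69% of all tested genes also differed. The other 6 had adjusted p-values from 0.153 for LOXL3 to 0.774 for LOX in the same limma F test.

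The long form of PLOD2, with the exon printed above, was assigned most PLOD2 counts in every library. NM_182943 held 69.0%, 79.4% and 83.0% of PLOD2 normalized counts in shHBO1, against 62.0%, 83.9% and 71.0% in shCTRL. The share varied by over 10 percentage points within each group, and the groups overlapped. It averaged 77.1 ± 7.23% in shHBO1 and 72.3 ± 11.04% in shCTRL (SD, n = 3 each). The difference of 4.84 percentage points gave a two-sided p = 0.7 by exact permutation, where the smallest p this design allows is 0.1. Without shCTRL replicate 1 the difference was −0.32.

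**Figure D3:**
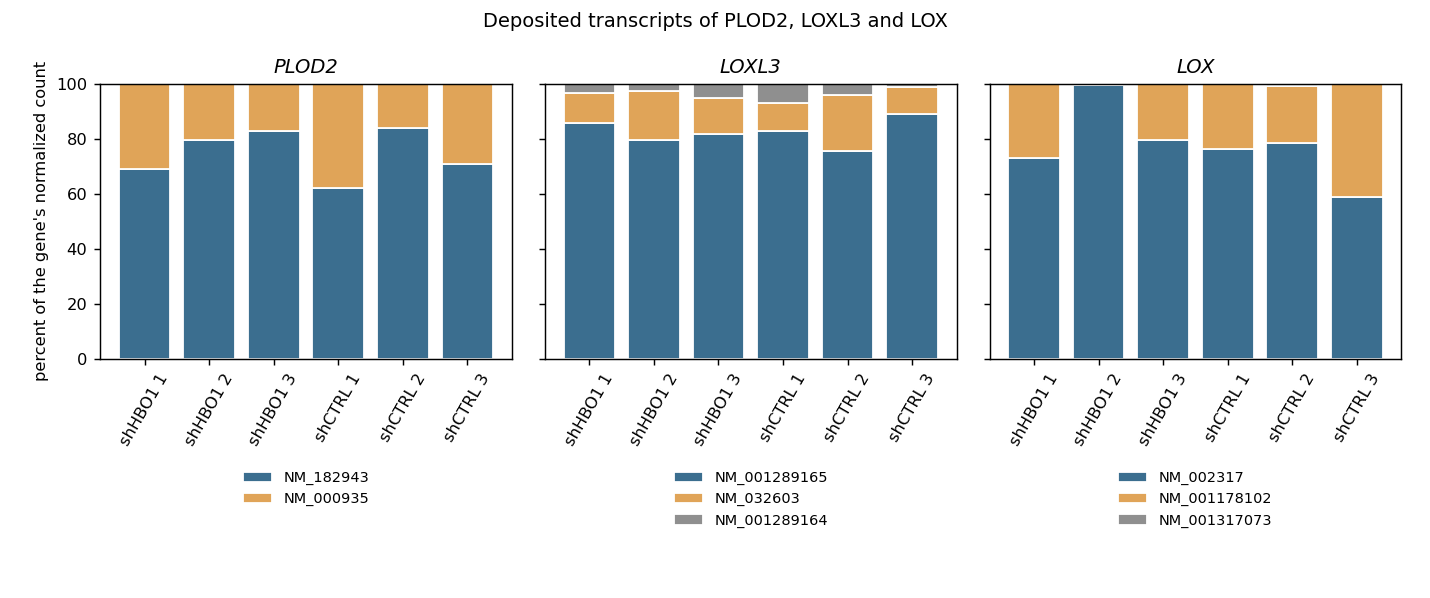
Percent of each gene's normalized count (y axis, 0 to 100) held by each deposited transcript of PLOD2, LOXL3 and LOX in the 3 shHBO1 libraries and then the 3 shCTRL libraries. The long form NM_182943 holds 62.0 to 83.9% of PLOD2, the short form NM_001289165 holds 75.5 to 88.9% of LOXL3, and in LOX the second transcript nearly vanishes in shHBO1 replicate 2.

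The enzymes' partners were read from lists of related genes. From each list the 4 genes with the smallest unadjusted p in limma without the block are named, among others. These 4 were picked for their differences, so groups that lay apart in them were partly fixed beforehand. Of 22 genes for collagen hydroxylation and folding, 0 passed over all genes with or without the block. The median log2 fold change was −0.085, against 0.00018 over all tested genes, and 18 of the 22 estimates were below 0; the median of the epithelial markers given above was further below 0. Their summed level was 97981 to 100729 normalized counts in shHBO1 and 105052 to 107512 in shCTRL, so the sums did not overlap. The largest parts were PDIA6, at a mean of 25742 in shHBO1 and 26463 in shCTRL, and P4HB, at 18758 and 20670. Both had overlapping groups. How often sums of other genes lie apart was not tested. P3H2, a prolyl 3-hydroxylase, had 4168, 3686 and 4675 in shHBO1, against 5225, 5096 and 5865 in shCTRL, and its groups lay apart, as did 4.43% of tested genes in this direction. Its log2 fold change was −0.37 (SE 0.10, limma adjusted p = 1.00, and 0.0827 with the block). CRTAP, the partner of prolyl 3-hydroxylase 1, averaged 4840 ± 227 in shHBO1 and 5582 ± 360 in shCTRL (SD, n = 3 each), also without overlap. P3H2 and CRTAP were the 2 of 22 listed genes with groups apart, both lower in shHBO1, as were 4.43% of tested genes. FKBP10, a collagen chaperone that supports telopeptide hydroxylation by PLOD2, averaged 1911 ± 152 in shHBO1 and 2242 ± 162 in shCTRL. P3H4, which works with PLOD1, had a log2 fold change of −0.24. The values of FKBP10 and P3H4 overlapped between groups, and all 4 genes failed the test over all genes.

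Genes that trim procollagen or bind lysyl oxidases showed no calls among the 9 tested of 12 listed. Their median log2 fold change was −0.12. BMP1, the protease that releases active LOX from its propeptide, averaged 415 normalized counts in shHBO1 and 443 in shCTRL. SPARC, a collagen-binding glycoprotein, had 10272, 10732 and 11394 in shHBO1, against 11531, 11619.5 and 12169 in shCTRL, and its groups did not overlap. The BMP1 relative TLL2 had a log2 fold change of 0.43, fibronectin FN1 had −0.22 and the enhancer protein PCOLCE had −0.25, with overlapping groups in each.

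Among 25 cross-linking substrates, fibrillar and basement membrane collagens and elastic fibre genes, 18 were tested and 0 passed. The median log2 fold change was 0.019. The chain best represented was COL4A2, of basement membranes, at 9351 normalized counts in shHBO1 and 9944 in shCTRL. COL1A1 averaged 813 in shHBO1 and 688 in shCTRL, while COL3A1 and COL5A1 were under 2 in both groups, and elastin ELN averaged 54.9 in shHBO1 and 56.8 in shCTRL. The elastic fibre protein FBLN1 had 662, 554 and 671 in shHBO1, against 1065, 963 and 897 in shCTRL. Its groups lay far apart, with a log2 fold change of −0.63 (SE 0.12, limma adjusted p = 0.836, and 0.0770 with the block). DESeq2 on the recovered reads called FBLN1 (adjusted p = 0.00503), which limma and edgeR did not. MFAP5, a microfibril protein, had 90.6, 87.6 and 92.6 in shHBO1, against 44.7, 30.0 and 76.6 in shCTRL, without overlap. Its log2 fold change was 0.93 (SE 0.33, limma adjusted p = 1.00), also without a call. LTBP4 (−0.46) and MFAP2 (−0.24) had overlapping groups.

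Copper supply and known inducers were examined last. The median log2 fold change of 11 copper genes was −0.14. None of these 11 passed in limma without the block (1 was lower at an unadjusted p under 0.05). CP, the plasma copper carrier ceruloplasmin, had 170.1, 253 and 114 normalized counts in shHBO1, against 343, 577 and 217 in shCTRL. Its groups overlapped, and CP fell only by the fit with the block (log2 fold change −1.04, limma adjusted p = 1.00 without and 0.0328 with the block). CP also differed between replicate numbers (limma F test of the numbers, adjusted p = 0.00714). ATP7A, the pump that loads copper onto lysyl oxidases, averaged 119 normalized counts in shHBO1 and 133 in shCTRL. The copper importer SLC31A1 had a log2 fold change of −0.15, COMMD1 had 0.19 and ATP7B had −0.34. Of 23 regulators and hypoxia genes 22 were tested and 0 passed, with a median log2 fold change of 0.077. EPAS1, which encodes HIF-2 alpha, had 3181, 3174 and 3927 in shHBO1, against 3155, 2862 and 2951 in shCTRL. Its groups did not overlap but came as close as 3174 against 3155, and its log2 fold change was 0.19. HIF1A, of the same list, had 4628, 4544 and 3135 in shHBO1, against 5170, 5323 and 3890 in shCTRL, with overlapping groups and a log2 fold change of −0.23. The hypoxia-induced hydroxylase EGLN3 had −0.61, the repressor ZEB1 had 0.56 and the receptor TGFBR1 had 0.20, each with overlapping groups.

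**Figure D4:**
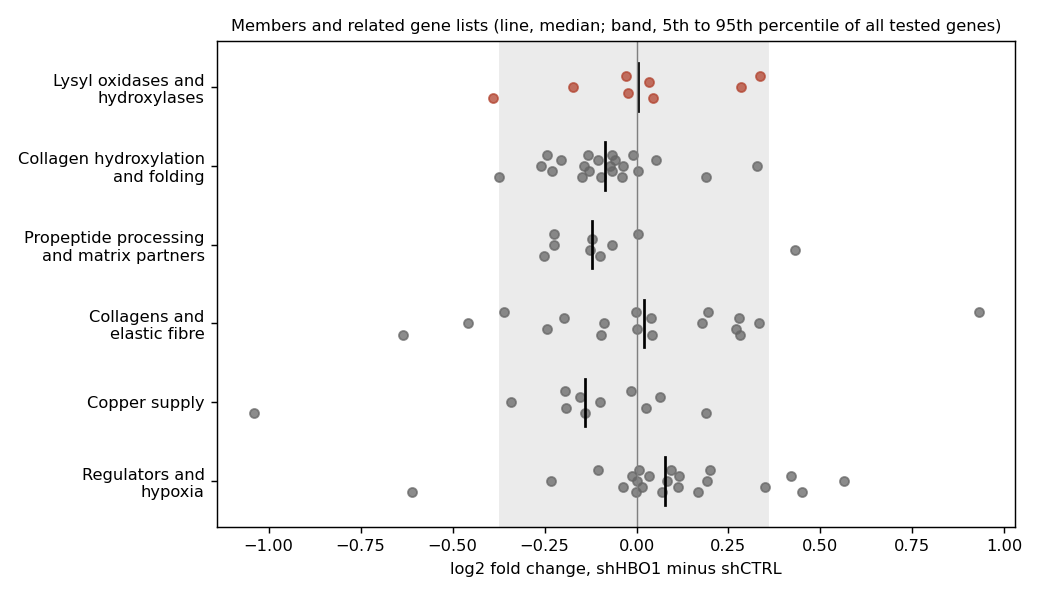
Log2 fold change, shHBO1 minus shCTRL, of the 8 enzymes (red) and of tested genes in 5 related lists (grey), 1 point per gene, with a line at each median and a band from the 5th to 95th percentile of all tested genes. The enzymes spread from −0.39 to 0.34 around a median of 0.0049, and the collagen hydroxylation and folding genes lie mostly below 0 around −0.085.

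Across the 8 enzymes 4 estimates were above 0 and 4 below, so the family had no common direction between shHBO1 and shCTRL. Over all tested genes 7598 were above 0 and 7584 below. The average of the 8 centred log2 profiles had its closest matches in AKAP3 (Pearson r = 0.98), ZNF555 (0.97) and PAN3-AS1 (0.96) over the 6 libraries, among non-members with a mean of at least 50. These r values are descriptions of 6 points that share libraries. The average itself was nearly flat, between −0.039 and 0.026 log2 units. Over the same 6 libraries r between members ran from −0.93 for LOXL4 and PLOD2, which differed between replicate numbers, to 0.68 for LOX and LOXL1. Some pairs ran together and others against each other, so a match to the average describes no single member.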

How the data were processed

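The authors deposited 1 table of normalized signal: read counts per RefSeq transcript scaled by 1 size factor per library. Per the submitters' processing notes, the tools were Bowtie 1.2.1.1, SAMtools and DESeq2 and the build hg19, with no role given for each. All values were whole multiples of a step specific to the library (100% of values at a tolerance of 0.01 read), which gave back whole reads. Names came from RefSeq (GRCh38.p14) for 57191 of 58215 transcripts and from GENCODE release 29 for 646, and 378 had none (at most 0.0977% of reads) and were left out. Coordinates belong to printed sequences only, since the builds differ. Transcripts were summed per gene, and log2(sum + 1) of genes with a mean of at least 10 was fitted with limma-trend 3.58.1 in R 4.3.3, without a block, with Benjamini-Hochberg adjustment over all genes and a threshold of 0.05. This scale understates changes of low genes. The fit was run on simulated counts with the same dispersion for every gene and no effect of replicate number. The real libraries do differ by number, so that run does not measure the error of the fit here. Depth was 35940400 to 39908703 reads per library.

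Same-numbered libraries deviated together (correlations 0.32, 0.20 and 0.48, each over 0.1), and fits with the number as a block were run as alternatives. The main fit took no account of pairing, so its intervals and adjusted p-values are unpaired. The labels name no shared batch, and shHBO1 replicate 1 correlated with shCTRL replicate 2 at 0.203, above the 0.197 of the pair numbered 2. Replicates differed beyond sampling noise (12.25 to 67.4 chi-square per degree of freedom). Alternatives were edgeR 4.0.16, DESeq2 1.42.0, other scalings, filters and pseudocounts, and left-out libraries. Named genes were the members, KAT7, the 4 genes of each related list with the smallest p, overlapping or neighbouring genes and the 3 most alike; other genes named were chosen after their values were seen. Members and lists were chosen with earlier results of these data known.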

Additional observations from a re-analysis of the deposited data

How the results depend on the processing

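None of the 8 enzymes passed in any of 23 alternatives (183 values, lowest adjusted p = 0.183). LOXL2 had no adjusted p in DESeq2 with the replicate block, so it was not assessed there. LOX, LOXL2 and LOXL3 kept their direction in all 68 of theirs, with log2 fold changes from 0.17 to 0.52, from −0.52 to −0.20 and from 0.23 to 0.48. Part of this was fixed beforehand. The groups of LOX did not overlap, so no left-out library or pair could turn its direction. LOXL2 and LOXL3 had the same direction in every numbered pair, so no left-out pair could turn theirs. LOXL4, at −0.17, changed sign when single libraries were left out, in a range from −0.50 to 0.041. Estimates near 0 did so when libraries or pairs were left out, in ranges from −0.023 to 0.086 for LOXL1, −0.054 to 0.010 for PLOD1, −0.16 to 0.094 for PLOD2 and −0.027 to 0.088 for PLOD3. On its most abundant transcript PLOD2 was at 0.071, with or without the replicate block. The difference in the PLOD2 long-form share ranged from −0.32 without shCTRL replicate 1 to 10.7 percentage points without shCTRL replicate 2. The calls of LOXL4 and PLOD2 between replicate numbers held with edgeR and with a pseudocount of 8.

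KAT7 was the 1 gene called by limma without the block. With the replicate block limma and edgeR called 19 genes each, DESeq2 called 19 without it and 148 with it, and the cause was not tested. Leaving out libraries or pairs gave 0 to 1 genes. Without pair 2 no gene passed, and KAT7 was at −2.01 (limma adjusted p = 0.397), within a range of −2.18 to −1.98. The block changed no call of a member. Blocked DESeq2 and the blocked most abundant transcript were chosen after seeing the data. LOXL2 had 34 to 62 reads per library, which limits its precision.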
